A study of Homo sapiens with 12 samples.

Results

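A set of 10 heat shock genes was followed across 12 RNA sequencing libraries: the transcription factor gene HSF1 and 9 chaperone genes, HSP90AA1, HSP90AB1, HSPA8, HSPH1, HSPB1, DNAJA1, DNAJB1, HSPD1 and HSPE1. They were taken by symbol from the deposited table and are 10 of its 38516 genes. The filter on low values kept a gene with an RPKM (reads scaled by gene length and library depth) of at least 0.5 in at least 3 libraries. It kept 17823 genes, the 10 heat shock genes among them.

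HSF1 rests in the cytosol and nucleus bound by chaperones. When unfolded proteins draw the chaperones away it forms trimers, enters the nucleus and binds heat shock elements, which are inverted repeats of the letters GAA and TTC in front of chaperone genes. HSP90 and HSP70 proteins fold client proteins with energy from ATP, J-domain proteins bring clients to HSP70, small heat shock proteins hold unfolded proteins without ATP, and the mitochondrial chaperonin encloses proteins while they fold. Carcinoma cells commonly carry high levels of these chaperones and of active HSF1.

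The libraries come from KYSE150 and KYSE510, human lines long kept in culture from esophageal squamous carcinomas (ESCC), grown in RPMI-1640 medium with 10% FBS. Each line had 3 control libraries and 3 libraries of cells in which HCP5, a long non-coding RNA gene, was silenced. Library titles begin with sh, which the labels leave unexplained, as they do the control reagent, and each line stands for a single tumour with 1 silenced condition. The labels do not say that replicates were separate cultures, so p-values measure only the spread between these libraries, and in bulk RNA fewer cells with a transcript cannot be told apart from less of it per cell.

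HCP5, the targeted gene, had an RPKM of 0.779, 0.745 and 0.786 in KYSE150 control replicates 1, 2 and 3, and 0.315, 0.418 and 0.579 in the silenced ones. In KYSE510 it had 0.914, 1.85 and 1.40 in the control and 0.505, 0.951 and 0.948 in the silenced libraries. The groups did not overlap in KYSE150 and overlapped in KYSE510, and the ratio of same-numbered libraries ran from 0.405 to 0.737 and from 0.513 to 0.676 in the respective lines, from 26 to 147 reads per library. Depth was 20035025 to 28202422 reads assigned to genes per library, and the 10 genes took 1.03% to 1.95% of them, with 497 to 166086 reads per gene and library. Of the squamous and general epithelial markers KRT5, KRT14, TP63, SOX2, KRT6A, DSG3, S100A2, EPCAM and CDH1, 8 of 9 had a mean RPKM of at least 1 in KYSE150, where SOX2 did not, and 9 of 9 in KYSE510. The 7 fibroblast markers summed to at most 0.901 RPKM in any library. Of these COL1A1 reached 0.800 in KYSE510 controls, and COL1A2, PDGFRA and PDGFRB were among those at or near 0. Of 7 leukocyte markers 1 had a mean RPKM of at least 1 in each group, CD68, at 29.7 to 47.1 RPKM. Of 4 endothelial markers CDH5 alone had such a mean, in KYSE510 only, where it reached 2.03. Of 5 glandular markers VIL1 alone did, in KYSE510 controls, where it reached 1.31.

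Upstream sequences were read from RefSeq's promoter table (GRCh38.p14), the 250 bases before each listed start. It matched 9 of the 10 genes by symbol, with 15 windows, and HSF1 was not matched. The heat shock motifs searched were GAANNTTC and TTCNNGAA, each the same on both strands. They stand for 2 adjoining units of a heat shock element and overlap where 3 units adjoin (GAANNTTCNNGAA or TTCNNGAANNTTC). At least one of the 2-unit motifs lay in 7 of the 15 windows, in 7 of the 9 genes, and in 11.6% of all 35116 windows of the table. A 3-unit run lay in 4 of the 15 windows, each before a listed start of HSP90AA1, HSP90AB1, HSPA8 or HSPD1, and in 0.441% of all windows. For HSP90AA1 and HSP90AB1 that start was an inner one, at 102087044 and 44247943, and the windows of their outer starts had no match. Both DNAJB1 matches likewise lay before the start at 14518397, and the outer start at 14529271 had none. No heat shock motif was found for HSPH1 and HSPE1. These are letter matches in fixed windows and not measured binding.

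The stretches of HSPB1, HSP90AB1 and DNAJB1 are shown in full because the silencing results below turn on these genes. Each is given 5′ to 3′ on the strand of its gene, with matches in capitals, and is limited to bases outside annotated exons. The HSPB1 stretch is chr7:76302423-76302543 on the plus strand, with its only match at positions -182 to -175 from the listed start. The HSP90AB1 stretch is chr6:44247693-44247865 on the plus strand, with 2 runs of 3 units. The DNAJB1 stretch is chr19:14518421-14518647 on the minus strand, with 2 separate 2-unit matches.
HSPB1 upstream: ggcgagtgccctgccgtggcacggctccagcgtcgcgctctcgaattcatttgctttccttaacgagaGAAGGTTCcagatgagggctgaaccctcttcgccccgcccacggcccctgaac
HSP90AB1 upstream: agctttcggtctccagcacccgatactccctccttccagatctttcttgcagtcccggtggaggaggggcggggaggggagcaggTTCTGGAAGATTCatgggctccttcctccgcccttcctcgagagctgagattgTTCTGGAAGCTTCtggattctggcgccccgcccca
DNAJB1 upstream: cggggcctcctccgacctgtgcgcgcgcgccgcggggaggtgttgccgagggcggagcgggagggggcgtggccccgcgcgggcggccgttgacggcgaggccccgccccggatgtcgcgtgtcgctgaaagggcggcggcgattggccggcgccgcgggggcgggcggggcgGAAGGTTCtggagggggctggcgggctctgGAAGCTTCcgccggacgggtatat

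Short stretches around the matches of 4 further genes are shown so that the runs can be compared letter by letter. HSP90AA1 is chr14:102087104-102087133 on the minus strand, HSPA8 is chr11:123062346-123062374 and chr11:123062171-123062199 on the minus strand, HSPD1 is chr2:197500062-197500090 on the minus strand, and DNAJA1 is chr9:33025064-33025093 on the plus strand. The HSPA8 run nearer the start and both HSP90AB1 runs share the letters TTCTGGAAG, and the HSPD1 run holds 4 units. It lies before the inner of the HSPD1 starts in the table, at 197499840, and after the outer one, at 197500274.
HSP90AA1 match: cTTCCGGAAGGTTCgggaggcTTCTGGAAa
HSPA8 match, far: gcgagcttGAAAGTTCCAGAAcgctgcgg
HSPA8 match, near: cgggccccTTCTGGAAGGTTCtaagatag
HSPD1 match: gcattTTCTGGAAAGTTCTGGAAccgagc
DNAJA1 match: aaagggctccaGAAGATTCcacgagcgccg

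HSP90AB1 had the highest level per length in all 4 groups and HSF1 the lowest. In KYSE150 controls the order of mean RPKM was HSP90AB1 (1154 ± 216, SD, n = 3, as below), HSP90AA1 (749.9 ± 231), HSPA8 (705 ± 91.6), HSPD1 (221 ± 31.0), DNAJA1 (177 ± 26.4), HSPE1 (169.9 ± 19.2), HSPB1 (93.9 ± 35.9), HSPH1 (41.9 ± 4.92), DNAJB1 (40.3 ± 2.0) and HSF1 (6.35 ± 1.26). The ranges of neighbours in this order overlapped from HSP90AB1 to HSPA8, from HSPD1 to HSPE1, and for HSPH1 and DNAJB1. In KYSE510 controls the order was HSP90AB1 (2021 ± 264), HSP90AA1 (961 ± 185), HSPA8 (469 ± 118), HSPD1 (373 ± 28.9), HSPE1 (367 ± 27.8), DNAJA1 (198 ± 32.4), DNAJB1 (36.2 ± 2.44), HSPH1 (23.1 ± 1.95), HSPB1 (21.2 ± 4.69) and HSF1 (5.07 ± 0.285). There the ranges overlapped among HSPA8, HSPD1 and HSPE1, and for HSPH1 and HSPB1. The 4 genes with a 3-unit run before a listed start, inner or outer, were the 4 highest in both control groups and in silenced KYSE150 libraries. In silenced KYSE510 libraries HSPE1 (368 ± 31.0), which has no heat shock motif in its window, was above HSPD1 (362 ± 25.9). This describes the 9 genes with a window and was not tested.

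**Figure D1:**
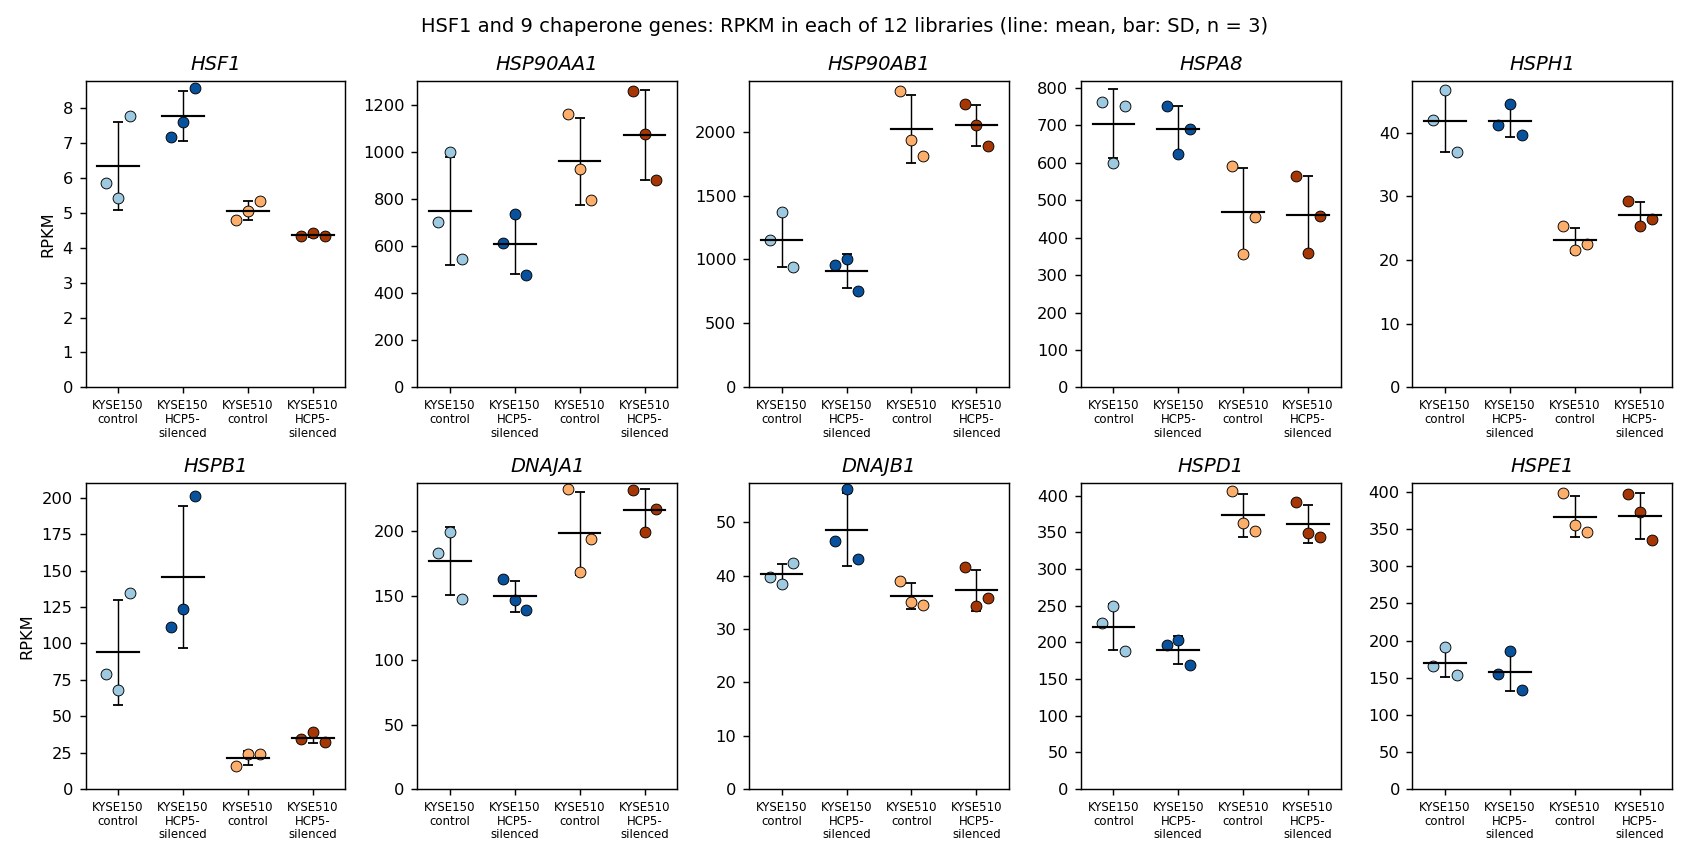
RPKM of HSF1 and 9 chaperone genes in each of 12 libraries, 1 panel per gene with its own axis from 0. Points are replicates 1, 2 and 3 from left to right, lines are means and bars the SD (n = 3). HSPB1 was higher in silenced than in control libraries of the same number in both lines, and HSP90AB1, HSPD1 and HSPE1 were higher in KYSE510 than in KYSE150.

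None of the 10 genes passed an adjusted p of 0.05 (limma over 17823 genes, Benjamini-Hochberg) for HCP5 silencing in KYSE150, in KYSE510, in the mean over lines or in the difference between lines. Over all genes, 0.499% were called in KYSE150, 0.0393% in KYSE510, 0.539% in the mean and 0% in the difference. At an unadjusted p under 0.05, 3 of the 10 passed in KYSE150 (HSF1, HSPB1 and DNAJB1), 2 in KYSE510 (HSPH1 and HSPB1), 1 in the mean (HSPB1) and 1 in the difference (HSF1), beside 18.1%, 6.35%, 11.5% and 12.2% of all genes. The same test on recovered reads with voom weights called 0 of the 10 in each of these comparisons. The labels do not say what a replicate number marks, and the numbers were taken to pair libraries within a line from these same data. With that number as a block 2 genes were called in KYSE150 (HSPB1 and HSP90AB1) and 1 in the mean (HSPB1), against 6.7% and 2.74% of all genes. It called 0 in KYSE510 (0.112% of all genes) and 0 in the difference (0%). In the blocked fit 7, 3, 4 and 6 of the 10 had an unadjusted p under 0.05 in KYSE150, KYSE510, the mean and the difference, beside 30.8%, 13.2%, 20.3% and 25.9% of all genes.

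The median log2 difference over all genes in KYSE150 was 0.082 and moved to -0.047 when each library was centred on its own median, so small differences in that line depend on the scale. All-gene calls there split into 67 higher and 22 lower as deposited, and 54 and 62 after centring. Over the 10 genes the median was -0.068 in KYSE150 and 0.033 in KYSE510, beside -0.023 over all genes in KYSE510. After centring, the KYSE150 differences were 0.51 for HSPB1, 0.16 for HSF1 and 0.13 for DNAJB1, and -0.13 for HSPH1, -0.16 for HSPA8, -0.24 for HSPE1, -0.35 for HSPD1, -0.36 for DNAJA1, -0.40 for HSP90AA1 and -0.47 for HSP90AB1. The mean and the difference over lines reuse the libraries of the single-line comparisons.

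HSPB1 encodes HSP27, a small heat shock protein that holds unfolded proteins and binds actin filaments. Its RPKM was 79.1, 67.8 and 135 in KYSE150 control replicates 1, 2 and 3, and 111, 124 and 201 in the silenced ones. In KYSE510 it was 15.8, 23.8 and 24.0 in the control and 34.5, 39.4 and 32.1 in the silenced libraries. The groups overlapped in KYSE150, where replicate 3 was the highest of both groups, and did not overlap in KYSE510. Silenced libraries were higher in 6 of 6 same-numbered pairs, by 1.41 to 1.83 times in KYSE150 and 1.34 to 2.19 times in KYSE510, and 6.7% of all genes were higher in all 6 pairs.

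The log2 difference of HSPB1 was 0.64 (SE 0.275, adjusted p = 0.257) in KYSE150, 0.74 (SE 0.275, adjusted p = 0.638) in KYSE510 and 0.69 (SE 0.195, adjusted p = 0.177) in the mean over lines. This mean lay at percentile 99.7 of all genes tested. With the replicate block the adjusted p was 0.0417 in KYSE150 and 0.0198 in the mean, both past the threshold, and 0.0995 in KYSE510. Over all alternatives but the leaving out of single libraries the KYSE150 adjusted p spanned 0.0339 to 0.431 and that of the mean spanned 0.0129 to 0.312. Without KYSE150 control replicate 3 the KYSE150 difference was 0.94 (adjusted p = 0.0487), and it was 0.39 (adjusted p = 0.652) without silenced replicate 3. Leaving out that control raised the calls over all genes in KYSE150 from 89 of 17823 to 1291 of 17652. An exact two-sided permutation of labels within lines, chosen after seeing the data, gave an unadjusted p = 0.015 for the mean (400 arrangements, smallest possible 0.005). For the other members the same permutation gave p = 0.095 to 0.83. It did not keep same-numbered libraries together. The exact permutation p of KYSE150 alone was 0.3, and that of KYSE510 alone was 0.1, which is the smallest that 3 against 3 libraries allow.

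The difference in HSPB1 change between lines was 0.10 (SE 0.389, adjusted p = 0.916). The summed RPKM of the 9 squamous and general epithelial markers ranged over 759 to 1485 in KYSE150 control and 1152 to 2471 in silenced libraries, and 829 to 948 and 952 to 1196 in KYSE510. Its part in the HSPB1 result was not tested. Of 8 other small heat shock protein genes listed, 7 were in the table and only HSPB8 passed the filter on low values, with 0.667 ± 0.0504 and 0.699 ± 0.201 RPKM in KYSE150 control and silenced libraries and 0.677 ± 0.143 and 0.706 ± 0.242 in KYSE510. CRYAB, the alpha-B crystallin, was at most 0.234 RPKM in any library.

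**Figure D2:**
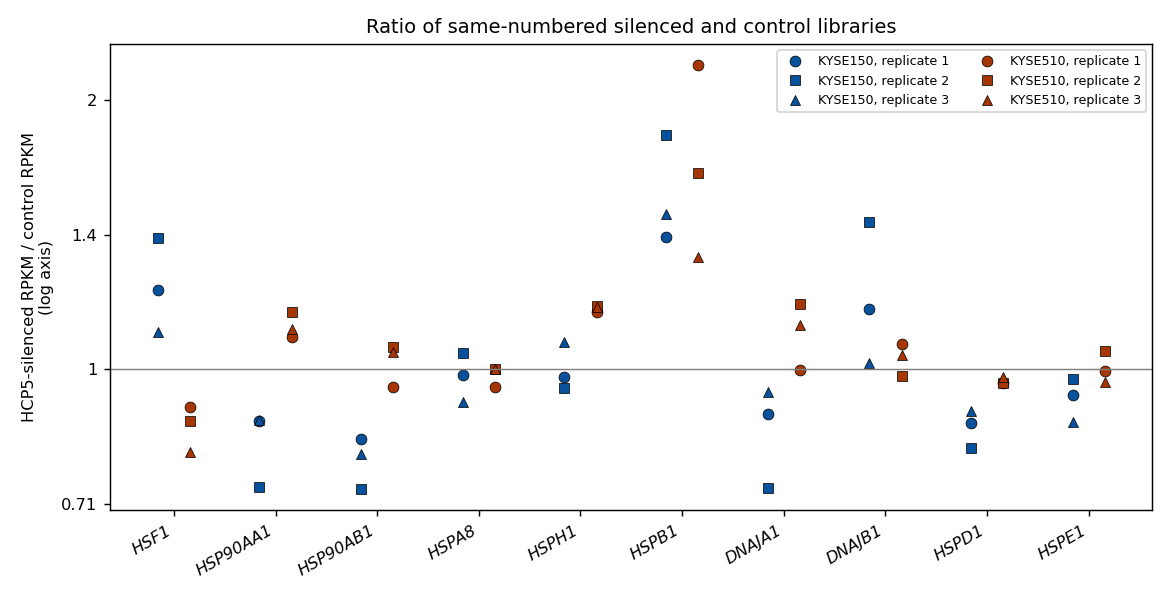
Ratio of RPKM in the silenced library to the control library of the same replicate number, on a log axis, for the 10 genes. Blue is KYSE150, brown is KYSE510, and shapes are replicate numbers. HSPB1 lies above 1 in all 6 pairs and HSPD1 below 1 in all 6. HSF1 lies above 1 in KYSE150 and below 1 in KYSE510, and HSP90AA1 the other way round. Of all genes, 6.7% were higher in all 6 pairs and 10.8% had the lines opposed. The share lower in all 6 was not counted.

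HSF1, the master transcription factor of the heat shock response, had an RPKM of 5.85, 5.42 and 7.79 in KYSE150 control replicates 1, 2 and 3 and 7.18, 7.60 and 8.57 in silenced ones. In KYSE510 it had 4.79, 5.06 and 5.36 and 4.34, 4.43 and 4.33. The groups overlapped in KYSE150, where control replicate 3 was the highest control, and did not overlap in KYSE510, where the silenced libraries were lower. The pairs of KYSE150 were higher on silencing in 3 of 3, those of KYSE510 lower in 3 of 3, and 10.8% of all genes had all pairs of the lines opposed in this way.

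The log2 difference of HSF1 was 0.29 (SE 0.118, adjusted p = 0.246) in KYSE150 and -0.19 (SE 0.118, adjusted p = 0.896) in KYSE510. The difference between lines was -0.48 (SE 0.167, adjusted p = 0.394), and 0.117 was the adjusted p with the replicate block, so it did not pass. Without KYSE150 control replicate 3 the KYSE150 difference was 0.43 with an adjusted p of 0.0331, past the threshold. In that fit 1291 of all 17652 genes tested were called, against 89 of 17823 with all libraries. Over single libraries left out the adjusted p ranged over 0.0331 to 0.620. After centring the KYSE150 difference was 0.16. Its exons share 139 bases with DGAT1 and 133 with GS1-393G12.12 on the opposite strand, at 1.16 to 2.66 and 3.93 to 8.60 RPKM, and without stated use of strand reads there cannot be told apart.

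The cytosolic HSP90 genes varied together from library to library. HSP90AA1, the stress-inducible form, had 703, 1000.3 and 546 RPKM in control libraries of KYSE150, 615, 738 and 479 in silenced libraries, 1161, 928 and 795 in KYSE510 controls and 1261, 1076 and 881 in silenced libraries. HSP90AB1, the constitutive form, had 1149, 1372 and 940.3, then 959.6, 1007 and 757, then 2317, 1936 and 1809, then 2212, 2048 and 1889 in the same groups. Replicate 2 was the highest and replicate 3 the lowest for both genes in both KYSE150 groups, and replicate 1 was the highest and 3 the lowest in both KYSE510 groups, so groups overlapped in each line.

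HSP90AA1 was lower in 3 of 3 silenced libraries of KYSE150 (0.738 to 0.877 times the same-numbered control) and higher in 3 of 3 of KYSE510 (1.09 to 1.16 times). Its log2 differences were -0.27 (SE 0.236, adjusted p = 0.553) and 0.16 (SE 0.236, adjusted p = 0.964), and the difference between lines was 0.43 (SE 0.333, adjusted p = 0.551). HSP90AB1 was lower in 3 of 3 pairs in KYSE150, with a log2 difference of -0.34 (SE 0.157, adjusted p = 0.281). With the replicate block this difference passed (adjusted p = 0.0388), in a range of 0.0388 to 0.764 over alternatives other than single libraries left out, and it was -0.11 after quantile normalization. In KYSE510 the difference was 0.026 (SE 0.157, adjusted p = 1.0). All 3 pairs of KYSE150 moved one way in 53% of all genes and all 3 of KYSE510 in 38.6%, so this alone sets neither gene apart. Of the 10 genes HSF1 and HSP90AA1 had all pairs of the lines opposed, beside 10.8% of all genes.

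Correlations over the 6 libraries of a line were computed for 5 gene pairs and are given as descriptions without a p, since same-numbered libraries deviate together and the 6 are not independent. HSP90AA1 and HSP90AB1 gave r = 0.945 and rho = 0.943 in KYSE150, and r = 0.943 and rho = 0.943 in KYSE510. Without the 2 libraries farthest from the median r was 0.681 and 0.942. HSP90AA1 and HSPH1 gave r = 0.886 and rho = 0.943 in KYSE150, and r = 0.681 and rho = 0.486 in KYSE510, with r of 0.954 and 0.196 without the 2 farthest. The ratio of HSP90AB1 to HSP90AA1 was 1.58 ± 0.182 in KYSE150 controls and 2.12 ± 0.143 in KYSE510 controls (SD, n = 3). All libraries share the depth scaling, which touches both genes alike. HSP90AA1 shares 197 exon bases with WDR20 on the opposite strand.

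HSPA8 encodes HSC70, the constitutive HSP70 of the cytosol, and HSPH1 encodes HSP105, which exchanges nucleotide on HSP70. HSPA8 had 763, 599 and 751 RPKM in control libraries of KYSE150 and 752, 625 and 691 in silenced libraries, with 592, 358 and 456 and 565, 358 and 457 in KYSE510. Silenced libraries stood at 0.920 to 1.04 times their same-numbered controls in KYSE150 and 0.955 to 1.0 times in KYSE510, and the groups overlapped in both lines. The log2 differences were -0.027 (SE 0.197, adjusted p = 0.973) and -0.021 (SE 0.197, adjusted p = 1.0), and their sign turned under other scalings: 0.15 after quantile normalization in KYSE150 and 0.013 with voom in KYSE510.

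HSPH1 had an RPKM of 42.1, 46.8 and 36.9 in the controls of KYSE150 and 41.2, 44.6 and 39.6 after silencing. In KYSE510 it had 25.3, 21.5 and 22.6 and 29.3, 25.3 and 26.5, and there every silenced library was above every control and 1.16 to 1.18 times its same-numbered one, although the lowest silenced library was only just above the highest control. The log2 difference was 0.22 (SE 0.0999, adjusted p = 0.784) in KYSE510. In KYSE150 it was 0.00053 (SE 0.0999, adjusted p = 1.0), and -0.13 after centring.

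The groups did not overlap for 3 of the 10 genes in KYSE510 (HSPB1 and HSPH1 higher, HSF1 lower) and for 1 in KYSE150 (DNAJB1 higher), against 12.1% and 19.2% of all genes. DNAJB1, the main stress-inducible J-domain protein HSP40, had 39.8, 38.5 and 42.5 RPKM in control libraries of KYSE150, 46.5, 56.3 and 43.1 in silenced libraries, 39.0, 35.0 and 34.5 in KYSE510 controls and 41.6, 34.4 and 35.8 in silenced ones. Silenced replicate 2 of KYSE150 was the highest of the 12, and the log2 differences were 0.26 (SE 0.107, adjusted p = 0.243) in KYSE150 and 0.040 (SE 0.107, adjusted p = 0.986) in KYSE510. Its exons share 228 bases with TECR on the opposite strand.

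DNAJA1, a J-domain partner of HSC70, had 183, 199 and 148 RPKM in control libraries of KYSE150 and 163, 147 and 139 in silenced libraries. In KYSE510 it had 233, 168 and 194 and 232, 199 and 217. The groups overlapped in both lines, and the log2 differences were -0.23 (SE 0.135, adjusted p = 0.381) and 0.13 (SE 0.135, adjusted p = 0.946). The level of DNAJA1 over that of DNAJB1 was 4.41 ± 0.861 in KYSE150 control and 3.11 ± 0.457 in silenced libraries, and 5.46 ± 0.597 and 5.81 ± 0.245 in KYSE510 (SD, n = 3). HSPA8 and DNAJA1 gave r = -0.204 and rho = 0.0857 in KYSE150, and r = 0.857 and rho = 0.943 in KYSE510, with r of 0.783 and 0.751 without the 2 farthest libraries. HSPB1 and DNAJB1 gave r = 0.404 and rho = 0.543 in KYSE150, and r = -0.132 and rho = -0.257 in KYSE510, with r of 0.524 and 0.803 without them.

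HSPD1 encodes the mitochondrial chaperonin HSP60 and HSPE1 its lid HSP10. They lie head to head on chromosome 2 and are read outward from starts with 104 bases between them in RefSeq. HSPD1 had 226, 249 and 188 RPKM in control libraries of KYSE150, 197, 204 and 169 in silenced libraries, 406, 362 and 351 in KYSE510 controls and 392, 349 and 344 in silenced ones. HSPE1 had 165, 191 and 154, then 155, 186 and 134, then 399, 356 and 347, then 397, 373 and 335. The groups of both genes overlapped within each line. HSPD1 was lower in 6 of 6 silenced libraries than in their same-numbered controls, at 0.817 to 0.897 times the control level in KYSE150 and 0.964 to 0.980 times in KYSE510, with log2 differences of -0.22 (SE 0.115, adjusted p = 0.341) and -0.044 (SE 0.115, adjusted p = 0.985). All 3 pairs of KYSE150 moved one way in 53% of all genes and all 3 of KYSE510 in 38.6%. The share of all genes lower in all 6 pairs was not counted. With the replicate block and centring together, chosen after seeing the data, the KYSE150 difference of HSPD1 passed at 0.0487.

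HSPE1 differed by -0.11 (SE 0.126, adjusted p = 0.675) and 0.0039 (SE 0.126, adjusted p = 1.0). Over the 6 libraries of a line HSPD1 and HSPE1 gave r = 0.845 and rho = 0.943 in KYSE150, and r = 0.880 and rho = 0.829 in KYSE510. Without the 2 farthest libraries r was 0.388 and 0.344. Dropping the farthest libraries narrows the range and can by itself lower r, so this does not decide whether the relation rests on them. The ratio of HSPD1 to HSPE1 was 1.30 ± 0.0722 in KYSE150 and 1.02 ± 0.00244 in KYSE510 controls (SD, n = 3). The level of HSPE1 is uncertain: it shares 281 exon bases with HSPD1 on the opposite strand, and the read-through gene HSPE1-MOB4 had 0.982 to 1.01 times as many reads as HSPE1. Reads of pseudogenes of the members amounted to at most 3.15% of the reads of their parent, in HSPD1.

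**Figure D3:**
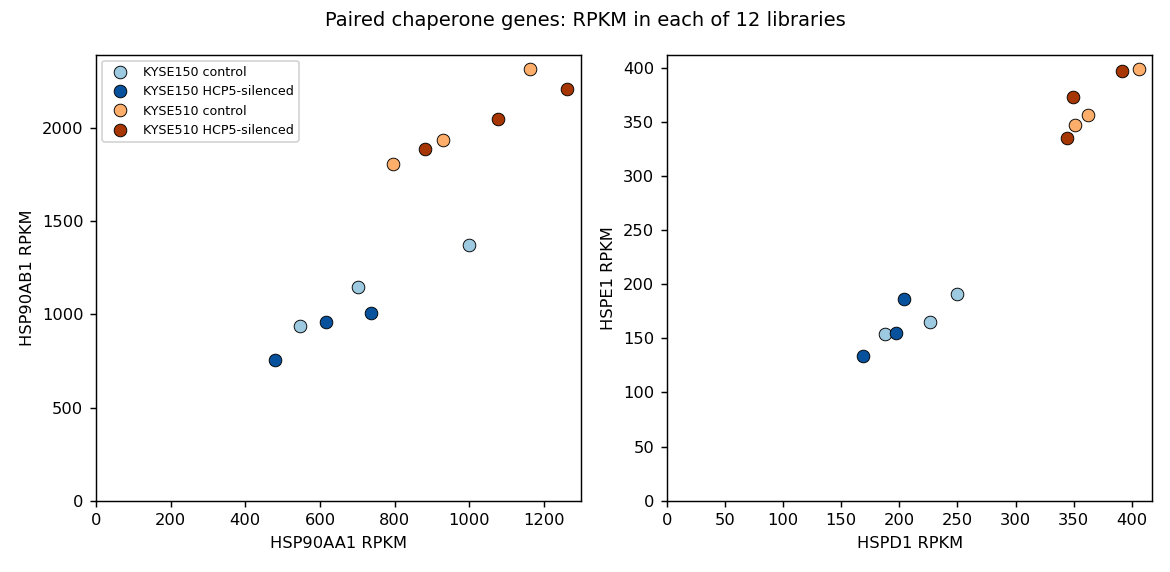
RPKM of HSP90AB1 against HSP90AA1 and of HSPE1 against HSPD1, 1 point per library, both axes from 0. Points of each line run upward together, and the KYSE510 libraries lie above those of KYSE150 in HSP90AB1, HSPD1 and HSPE1.

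The lines themselves differed in 6 of the 10 genes, beside 62% of all genes. In KYSE510 controls against KYSE150 controls, the log2 difference was 1.11 (SE 0.126, adjusted p = 1.49e-05) for HSPE1, 0.82 (SE 0.157, adjusted p = 8.00e-04) for HSP90AB1 and 0.76 (SE 0.115, adjusted p = 1.43e-04) for HSPD1, which were higher. It was -2.08 (SE 0.275, adjusted p = 4.98e-05) for HSPB1, -0.84 (SE 0.0999, adjusted p = 2.14e-05) for HSPH1 and -0.61 (SE 0.197, adjusted p = 0.0186) for HSPA8, which were lower. The groups did not overlap for these 6 and for HSF1, 7 of the 10, against 64% of all genes, so the count is near the background.

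HSPB1 had 93.9 ± 35.9 RPKM in KYSE150 and 21.2 ± 4.69 in KYSE510 controls (SD, n = 3), the largest log2 difference of the 10. HSF1 differed by -0.28 (SE 0.118, adjusted p = 0.0543), and passed at 0.0160 after centring, at 0.0215 after quantile normalization and at 0.0173 without KYSE150 control replicate 2. Without KYSE150 control replicate 3 it was -0.14 (adjusted p = 0.204), and over the other settings the adjusted p reached 0.123. HSP90AA1 differed by 0.39 (SE 0.236, adjusted p = 0.176) and passed at 0.0355 without KYSE150 control replicate 2 (0.62) and at 0.0444 after quantile normalization. It was 0.18 (adjusted p = 0.524) without KYSE150 control replicate 3 and 0.24 (adjusted p = 0.444) without KYSE510 control replicate 1. DNAJA1 and DNAJB1 differed by 0.17 (SE 0.135, adjusted p = 0.307) and -0.15 (SE 0.107, adjusted p = 0.232). The HSPA8 call was lost with voom (adjusted p = 0.0510), and without KYSE150 control replicate 1 (0.0622), KYSE150 control replicate 3 (0.0519) or KYSE510 control replicate 2 (0.0831). This comparison shares its control libraries with those of silencing.

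**Figure D4:**
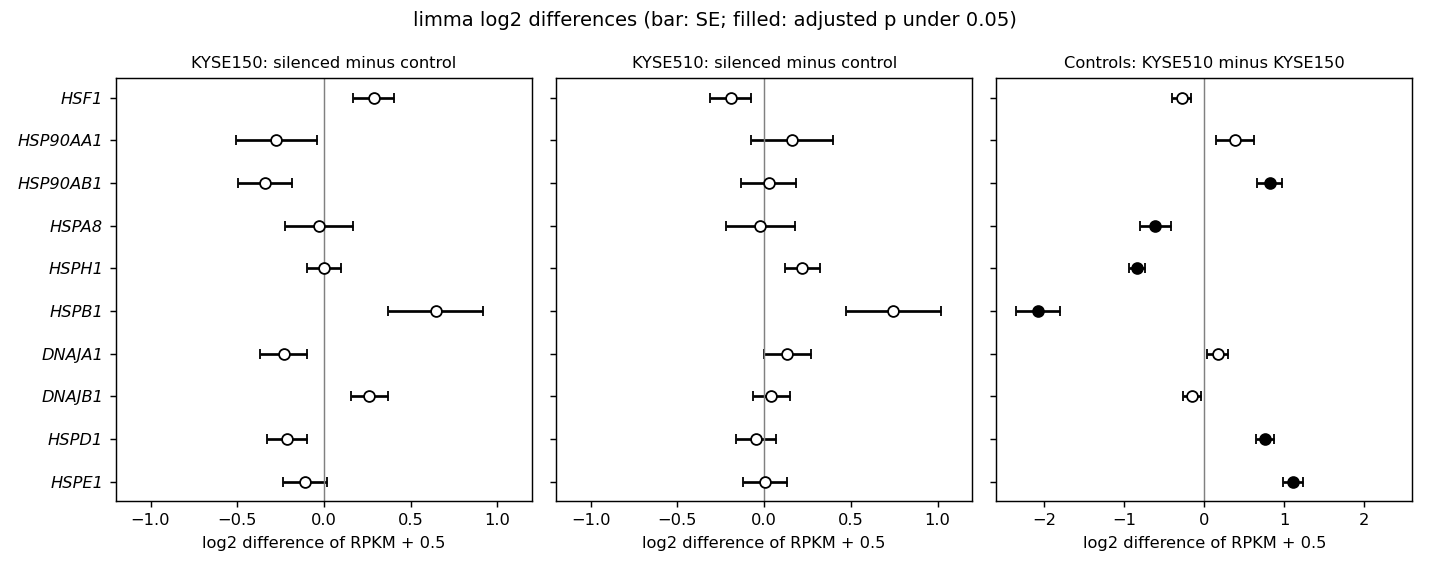
Log2 differences of RPKM + 0.5 for the 10 genes, silenced minus control in KYSE150 and KYSE510 and KYSE510 minus KYSE150 among controls. Points are limma estimates, bars are SE, and filled points have an adjusted p under 0.05, which holds for 6 genes between control lines and for 0 in the silencing comparisons.

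Around these 10 genes, 97 further genes of the chaperone network were tested, in 9 lists of partners, regulators and other targets that share some genes. For silencing 1 was called in KYSE150, 0 in KYSE510, 2 in the mean over lines and 0 in the difference, and 18, 8, 11 and 15 had an unadjusted p under 0.05. Over all genes 18.1%, 6.35%, 11.5% and 12.2% did. The genes called by limma on RPKM were HSBP1 in KYSE150 and HSBP1 and HSPA2 in the mean. With voom HSBP1 was called in KYSE150, DNAJB2 in KYSE510, DNAJB2, HSBP1 and HSPA2 in the mean, and 0 in the difference.

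HSBP1, a small coiled-coil protein known to bind HSF1 trimers and dampen their activity, fell. It had 15.8, 16.9 and 15.2 RPKM in control libraries of KYSE150 and 12.4, 12.5 and 12.6 in silenced libraries, with 14.3, 14.7 and 14.1 and 12.1, 12.5 and 12.5 in KYSE510, without overlap in either line. The log2 difference was -0.34 in KYSE150 (SE 0.0620, adjusted p = 0.0473), -0.21 in KYSE510 (SE 0.0620, adjusted p = 0.445) and -0.27 in the mean (SE 0.0439, adjusted p = 0.0212). The KYSE150 call was lost with 10 of 12 libraries left out in turn and the mean call with 8 of 12, with adjusted p up to 0.168 and 0.0726 and the direction kept. After centring the adjusted p was 0.0529 and 0.0548, with ranges of 0.0247 to 0.218 and 0.00979 to 0.0548 over alternatives other than single libraries left out.

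HSPA2, an HSP70 best known from the testis, rose in the mean over lines. It had 1.04, 1.08 and 1.30 RPKM in control libraries of KYSE150 and 1.40, 1.43 and 1.68 in silenced libraries, with 9.52, 9.39 and 9.05 and 12.6, 13.1 and 11.9 in KYSE510, again without overlap. The log2 difference was 0.35 in the mean (SE 0.0617, adjusted p = 0.0346), with 0.29 in KYSE150 and 0.41 in KYSE510 (adjusted p = 0.143 and 0.205). The call was lost with 11 of 12 libraries left out in turn, with adjusted p up to 0.107, and it ranged over 0.0132 to 0.0464 in alternatives other than these.

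With the replicate block 8 of the 97 listed genes were called in KYSE150, 0 in KYSE510 and 4 in the mean, beside 6.7%, 0.112% and 2.74% of all genes, so the counts are near the background. In KYSE150, HSPA14 (0.28), HSPA2 (0.29), HSPA1B (0.34), the secreted chaperone CLU (0.37) and the mitochondrial protease HTRA2 (0.38) had positive log2 differences, and DNAJC7 (-0.27), the prefoldin subunit PFDN4 (-0.44) and HSBP1 (-0.34) negative ones. Their adjusted p in that fit ran from 0.0230 to 0.0448. In the mean, DNAJB2 (0.40), IER5 (0.40), which activates HSF1, and HSPA2 were higher and HSBP1 lower. HSPA1A and HSPA1B are near-identical copies, so the split of reads between them is uncertain. HSPA1B had 135 ± 12.2 and 171 ± 16.9 RPKM in KYSE150 control and silenced libraries and 598 ± 126 and 606 ± 149 in KYSE510, and HSPA1A had 83.2 ± 26.3, 80.4 ± 20.8, 298 ± 120.2 and 328 ± 105.

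The list of 22 other heat-inducible HSF1 targets tested had a median log2 difference of 0.11 in KYSE150 and 0.019 in KYSE510, with 15 and 13 of 22 above 0 and 0 called in either line (1 and 1 at an unadjusted p under 0.05, limma). Over all genes 66.1% lay above 0 in KYSE150, or 41.1% after centring, and 43.0% in KYSE510. HSPA6, which cells express almost solely under proteotoxic stress, had 0.0341 ± 0.0252 and 0.0664 ± 0.0364 RPKM in KYSE150 and 0.875 ± 0.306 and 0.979 ± 0.210 in KYSE510. BAG3, a stress-induced HSP70 co-chaperone, had 70.5 ± 4.06 and 77.1 ± 2.82 RPKM in KYSE150 and 35.6 ± 3.15 and 39.1 ± 1.27 in KYSE510.

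The medians of the other lists in KYSE150 and KYSE510 were as follows. They were 0.026 and 0.025 for 15 HSP90 and HSP70 relatives, and 0.11 and 0.077 for 18 J-domain proteins. They were -0.0058 and -0.017 for the 14 genes of TRiC, the cytosolic chaperonin, and prefoldin, and -0.0043 and 0.033 for 15 HSP90 co-chaperones. They were -0.077 and -0.020 for 11 HSP70 exchange factors and regulators, and 0.13 and -0.042 for 9 HSF genes and regulators. The 13 mitochondrial chaperones and proteases had -0.019 and -0.073, with 12 of 13 below 0 in KYSE510, where 43.0% of all genes lay above 0, and 0 of 13 called there (2 at an unadjusted p under 0.05, limma).

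Between control lines 67 of the 97 listed genes were called, near the 62% of all genes. Higher in KYSE510 were HSPA2 (2.59) and HSPA1B (2.13) among HSP70 relatives, DNAJC10 (0.84) and DNAJB4 (0.60) among J-domain proteins, and the TRiC subunits CCT3 (1.17) and CCT5 (0.70). So were the HSP90 co-chaperones PTGES3 (0.89) and UNC45A (0.65), BAG2 (2.90) and ST13 (0.80) among HSP70 regulators, and EP300 (0.67) and HSF2 (0.50) among HSF genes and regulators. The mitochondrial HSP90 TRAP1 (0.92) and the protease SPG7 (0.57) were higher too. The polyubiquitin gene UBB had 0.254 ± 0.156 RPKM in KYSE150 and 361 ± 32.8 in KYSE510 controls, the largest log2 difference of any listed gene (8.92). Its highest value in KYSE150 was 0.400 RPKM, so it passed the filter only through KYSE510 libraries.

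Lower in KYSE510 were HSPA14 (-1.19) and HYOU1 (-0.65) among HSP70 relatives, DNAJB6 (-0.87) and DNAJB5 (-0.78) among J-domain proteins, and CCT2 (-0.71) and PFDN1 (-0.59) of TRiC and prefoldin. So were the HSP90 co-chaperones CHORDC1 (-1.56) and CDC37 (-0.77), which hands kinases to HSP90, and BAG3 (-0.98) and GRPEL2 (-0.61) among HSP70 regulators. SIRT1 (-0.56), which deacetylates HSF1, DAXX (-0.56), ZFAND2A (-1.0), CLPB (-1.31) and YME1L1 (-1.18) were lower as well. All values are log2 differences with adjusted p (limma) of at most 0.00590, in DNAJB4. The level of DNAJB5 was low, at 0.459 ± 0.0106 RPKM in KYSE150 and 0.0596 ± 0.0127 in KYSE510 controls (SD). It passed the filter on low values only through KYSE150 libraries, so its direction here is not independent of that filter.

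Genes that followed HSF1, HSP90AA1 and HSPD1 most closely were sought among 7324 genes with a mean RPKM of at least 5, by Pearson r of deviations from the line mean over 12 libraries, which share groups and depth. Nearest to HSF1 were TCEB2 (r = 0.976), RXRA (r = 0.972) and TRIM39-RPP21 (r = 0.971). Nearest to HSP90AA1 were HSP90AA2P (r = 0.971), which is its pseudogene and may share its reads, LIG1 (r = 0.953) and SPECC1 (r = 0.951). Among the nearest to HSPD1 were HSP90AB1 (r = 0.973) and GLYR1 (r = 0.973). HSF1 ran against HSP90AB1 (r = -0.850), DNAJA1 (r = -0.837), HSPD1 (r = -0.792) and HSP90AA1 (r = -0.777) across these libraries. From the highest r downward these ranked 7038, 6982, 6851 and 6794 among the 7324 genes, so many genes outside the set ran against HSF1 as strongly. With HSPH1, HSPE1 and HSPA8 its r was -0.657, -0.588 and 0.0232. HSF1 had an r of 0.501 with HSPB1 and 0.332 with DNAJB1, at ranks 3053 and 3782. These are descriptions of 12 libraries.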

How the data were processed

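RNA sequencing measured 12 libraries, 3 in each of 4 groups. The authors deposited RPKM per gene, with a length column (other) and the position columns featureCounts writes, per the file headers. The submitters' processing notes name HISAT2, DESeq and GRCh38, with no versions or roles. Aligner settings, annotation release and use of strand are not given in the sources used here. Whole reads were recovered from 100% of values, as RPKM times length is a multiple (tolerance 0.01) of what 1 read is worth in a library, and their totals matched that worth in 12 of 12 libraries.

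Values were tested as log2(RPKM + 0.5), which understates changes of low genes, with limma 3.58.1 (lmFit, eBayes with trend, two-sided) in R 4.3.3 over 12 libraries with 4 group means and 8 residual degrees of freedom, adjusted over 17823 genes at 0.05. The fit was tested on simulated data. The members and lists were chosen with earlier results of these data known. Named genes are all members, listed genes past the threshold for silencing, and the 2 highest and 2 lowest listed genes of each list between control lines. A gene among those nearest to HSPD1 is not reported here. Single values received exact permutation tests with scipy 1.17.1, the ones across both lines chosen after seeing the data.

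Same-numbered control and silenced libraries of a line, numbered by their titles, had deviations from the group mean that correlated at 0.147 to 0.415 in 6 of 6 pairs, against -0.385 to 0.184 for other numbers. These ranges overlap, and the labels do not say what a number marks. The numbers were taken as pairs on these values alone, with the replicate block (4 residual degrees of freedom) as an alternative. Between replicates of a group the chi-square divided by genes lay at 11.3 to 40.4, above sampling noise, so none was counted as a copy. Other pseudocounts, filters, scalings, voom, a fit without trend and libraries left out were tried too.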

Additional observations from a re-analysis of the deposited data

How the results depend on the processing

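With the replicate block, 2 members were called in KYSE150, 1 in the mean over lines, and 0 in KYSE510 and the difference. Of listed genes 8 were called in KYSE150 and 4 in the mean. The block was also joined with centring or with quantile normalization, both chosen after seeing the data. These fits called 3 and 1 members in KYSE150 and 1 and 1 in the mean. They called 6 and 5 listed genes in KYSE150 and 4 and 4 in the mean. Of all 17823 genes they called 849 and 727 in KYSE150 and 431 and 472 in the mean. The block alone called 1194 and 488. The block changed no other count of members or listed genes. The comparison of control lines has no blocked value, and the mean and the difference have none with the 6 libraries of a line alone. Listed genes called in KYSE150 numbered 0 with centring, without the variance trend and with 6 libraries alone, and voom called 1 in KYSE510. Members called in the other planned settings stayed at 0 for silencing, apart from the fits with a single library left out, given below.

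The sign of small, uncalled differences turned as follows, and the cause was not tested. With centring, quantile normalization and voom, HSPH1 in KYSE150 was -0.13, -0.044 and -0.11. HSPA8 was 0.15 in KYSE150, 0.074 in the mean and -0.15 in the difference with quantile normalization, and 0.0050 and 0.013 in KYSE510 with centring and voom. In the mean, HSF1 was -0.0051 with centring and -0.00051 with quantile normalization, and HSP90AA1 was 0.059 with quantile normalization. The block left these values as they were, which it does by design, since each block pairs a control with a silenced library.

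Leaving out each library in turn gave 0 to 2 members called in KYSE150, the 2 being HSF1 and HSPB1 without KYSE150 control replicate 3. In that fit 1291 of all 17652 genes tested were called in KYSE150. Listed genes called numbered 0 to 9 in KYSE150 and 0 to 3 in the mean. Over the same fits 15 to 1291 of all genes were called in KYSE150 and 43 to 140 in the mean. Uncalled differences whose sign turned ranged, in KYSE150 -0.14 to 0.041 for HSPA8, -0.086 to 0.082 for HSPH1 and -0.23 to 0.0045 for HSPE1, and in KYSE510 -0.050 to 0.13 for HSP90AB1, -0.20 to 0.16 for HSPA8, -0.041 to 0.094 for DNAJB1, -0.10 to 0.018 for HSPD1 and -0.052 to 0.070 for HSPE1. They ranged, in the mean -0.0023 to 0.12 for HSF1, -0.16 to 0.058 for HSP90AA1, -0.11 to 0.068 for HSPA8, -0.11 to 0.012 for DNAJA1 and -0.11 to 0.0042 for HSPE1, and in the difference -0.17 to 0.19 for HSPA8, -0.19 to 0.36 for HSPB1 and -0.00062 to 0.24 for HSPE1.
The members had at least 497 reads in every library.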
